A study of Mus musculus with 4 samples.

Results

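Flicr is a long noncoding RNA gene beside Foxp3, and the regions described here are those in which accessible chromatin of regulatory T cells was lower in Flicr KO than in Flicr WT after the libraries were put on a common scale. They were chosen by their measured values: the RPKM of each region (reads per kilobase of region, normalized to the reads of the library) was divided by the library's own median RPKM, and an autosomal region with a mean RPKM of 3 or more was taken when the lower of the 2 scaled WT values was at least 1.5 times the higher of the 2 scaled KO values. This rule found 107 regions among 31485 autosomal regions of that level, out of 82264 autosomal regions and 84476 regions in all. Since the genotype contrast chose them, their difference between the genotypes is given as a description and not as a result of a test. They are called the KO-low regions here, because each still held at least 6 reads in either KO library. Their median scaled values in KO, 1.14 and 1.06, lay near the median of all regions measured. No level outside the regions was measured, so whether any of them fell to background could not be judged.

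The cells were CD4+ TCRβ+ regulatory T cells, taken by flow cytometry as the brightest 50% for CD25. They came from the spleen and lymph nodes (LN) of male NOD mice, a strain prone to autoimmune diabetes, aged 8 to 10 weeks. One group carried an intact Flicr gene (Flicr WT, 2 libraries) and the other a knocked-out one (Flicr KO, 2 libraries), with 50000 cells per library and no other allele or treatment named. The labels do not say whether replicates came from separate mice, how the deletion was made or how many founder lines were used, so the spread between replicates may be technical. ATAC-seq reads open chromatin through a transposase that inserts sequencing adapters where DNA is not packed, and accessible regions of this kind are mostly promoters and enhancers. In regulatory T cells such elements keep Foxp3, the transcription factor that defines the lineage, expressed, and Foxp3 protein in turn binds many sites that were already open before it was made. Regions are named by position only (mm9), since no mm9 genome or annotation was used here, and for the same reason marker genes of regulatory T cells could not be looked up and no sequence is shown.

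Library depth ran from 19514512 reads in Flicr KO replicate 2 to 41809276 in Flicr KO replicate 1. The share of reads that fell in regions was 24.2% and 31.1% for WT replicates 1 and 2, and 35.1% and 34.0% for KO replicates 1 and 2. The median RPKM of all regions, by which each library was divided, was 1.92, 2.47, 2.54 and 2.46 in the same order, so that the scaling mainly raised Flicr WT replicate 1. Division by the median of all regions did not bring the stronger regions level. Over the 31485 regions of 3 RPKM or more, the median scaled value was 2.38 and 2.39 for WT and 2.59 and 2.60 for KO, and 69.0% of them had a higher scaled mean in KO.

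Within the KO-low regions the scaled value was about 2 in WT and about 1 in KO. In Flicr WT replicate 1 it ran from 1.14 to 5.49 with a median of 2.17, and in Flicr WT replicate 2 from 1.55 to 5.53 with a median of 2.15. In Flicr KO replicate 1 it ran from 0.546 to 3.50 with a median of 1.14, and in Flicr KO replicate 2 from 0.328 to 2.60 with a median of 1.06. A scaled value of 1 is the median region of the library, and 46 of the 107 stood at 1 or more in both KO libraries, while 18 stood under 1 in both. All 107 stood above 1 in both WT libraries. The log2 ratio of the mean scaled KO value to the mean scaled WT value ran from -2.05 to -0.61 with a median of -0.96, against a median of 0.13 over all regions of 3 RPKM or more.

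**Figure D1:**
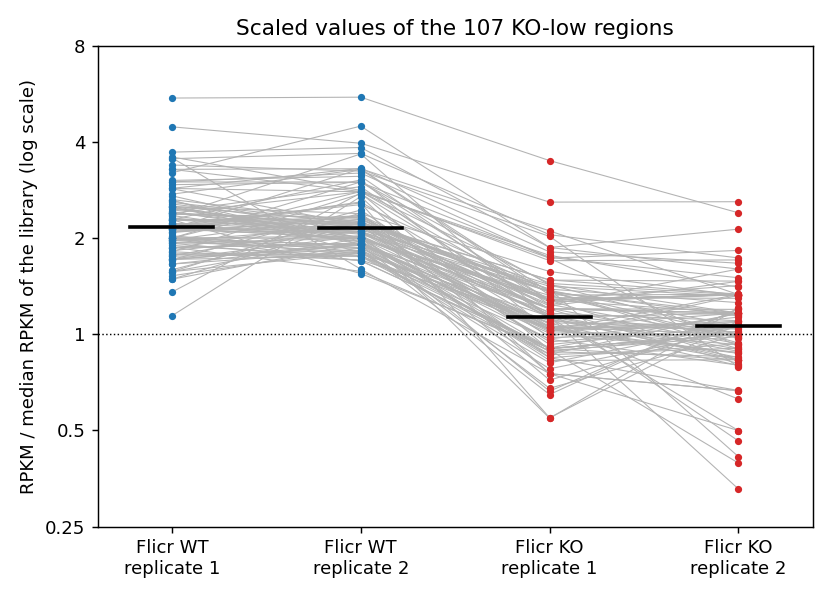
Scaled value (RPKM divided by the median RPKM of the library, log scale) of the 107 KO-low regions in each of the 4 libraries; each grey line is 1 region, black bars are medians, and the dotted line at 1 is the median region. WT medians are 2.17 and 2.15 and KO medians 1.14 and 1.06; the gap between genotypes is fixed by the rule, and 46 regions stay at 1 or more in both KO libraries.

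The margin by which the regions passed was small. The ratio of the lower WT to the higher KO value had a median of 1.64 and a maximum of 2.22, 43 of the 107 lay under 1.6, and 8 reached 2. Nearest inside the threshold was the 385-bp region of chromosome 16 at 44018432 to 44018816, with scaled values of 2.42 and 1.99 in WT and 1.32 and 0.976 in KO. Nearest outside was the 387-bp region of chromosome 2 at 120178605 to 120178991, with 2.27 and 2.98 in WT and 1.51 and 0.971 in KO. These neighbours on either side of the threshold had like values, so the threshold marks no break among the regions. Replicates of a genotype differed by up to 2.36-fold in WT (replicate 2 over replicate 1) and up to 3.47-fold in KO (replicate 1 over replicate 2). In 91 of the 107 the ratio between genotypes was larger than the ratio between the replicates of either genotype. The rule compares the lower WT with the higher KO value, so it favours regions with close replicates, and this count is partly built in. No like count was made for the other groupings. Neither WT library set the lower value throughout: replicate 1 did in 56 regions and replicate 2 in 51. The higher KO value came from Flicr KO replicate 1 in 64 and from Flicr KO replicate 2 in 43.

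Read numbers behind these values were low. The median KO-low region held 44 and 61 reads in WT and 42 and 18 in KO, against 91, 132, 190 and 86 in the median region of 3 RPKM or more. In Flicr KO replicate 2 the number was under 20 in 61 of the 107 regions and under 10 in 6. Exact 95% Poisson intervals, which cover counting error only, were put on the reads. The interval of the lower WT library lay wholly above that of the higher KO library in 21 of the 107. The rule had already set these values at least 1.5-fold apart, and no like count was made over other regions. Most read numbers were even, as when both mates are counted, so the intervals are too narrow and 21 may be too high.

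The region with the largest ratio, 2.22, was 588 bp wide on chromosome 4 at 141180965 to 141181552. Its scaled values were 2.22 and 1.96 in WT (4.25 and 4.84 RPKM, 73 and 92 reads) and 0.882 and 0.851 in KO (2.24 and 2.10 RPKM, 55 and 24 reads). Both replicates of each genotype were close here, at 2.09 ± 0.185 in WT and 0.866 ± 0.0218 in KO (SD, n = 2 each). The next, of 251 bp on chromosome 17 at 79510227 to 79510477, had scaled values of 2.43 and 2.90 in WT and 1.129 and 0.50 in KO. Its lowest value rested on 6 reads in Flicr KO replicate 2, beside 30 reads in the other KO library.

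The third was also 251 bp wide, on chromosome 9 at 3000005 to 3000255, and is the first region of its chromosome in the files. It held 50 and 32 reads in WT and 20 and 6 in KO, or 3.57, 1.60, 0.753 and 0.50 as scaled values. Flicr WT replicate 1 stood far above the other WT library here, and the nearest other region lay 258488 bp away, the largest such distance among the KO-low regions. Another pair of the highest ratios lay on chromosome 4, both 251 bp wide. The region at 119481908 to 119482158 had scaled values of 3.0 in each WT library and 1.43 and 0.999 in KO, and that at 131919474 to 131919724 had 2.29 and 2.10 in WT and 1.05 and 0.833 in KO. In both, Flicr KO replicate 2 was the lower KO library, on 12 and 10 reads.

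Of the other 5 with the highest ratios, the 321-bp region of chromosome 12 at 92657243 to 92657563 was uneven within WT, at 2.34 and 3.67, and stood at 1.12 and 0.846 in KO. The 251-bp region of chromosome 3 at 138569363 to 138569613 was uneven in the same way, with 1.57 and 2.40 in WT and 0.753 and 0.666 in KO. Even replicates were seen in the 313-bp region of chromosome 5 at 101092975 to 101093287, with 2.75 and 3.29 in WT and 1.33 in each KO library. The 251-bp region of chromosome 2 at 155338263 to 155338513 was at 2.14 and 2.0 in WT and at 0.904 and 0.999 in KO. The most accessible of these 10 was the 313-bp region of chromosome 11 at 70078833 to 70079145, with 7.13 and 9.49 RPKM in WT and 4.75 and 3.94 RPKM in KO, which are 3.72, 3.85, 1.87 and 1.60 after scaling.

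None of the KO-low regions was among the strongly accessible ones. Their mean RPKM had a median of 3.74 and a maximum of 9.74, against a median of 5.77 and a maximum of 118 over all regions of 3 RPKM or more. Of 7676 regions between 3 and 4 RPKM, 71 were KO-low (0.925%); of 8825 between 4 and 6 RPKM, 31 were (0.351%); of 7888 between 6 and 10 RPKM, 5 were (0.0634%); and of 7096 at 10 RPKM or more, 0 were. The most accessible member, of 313 bp on chromosome 1 at 155593929 to 155594241, had 10.5 and 13.6 RPKM in WT and 8.89 and 5.91 RPKM in KO. Its scaled values were 5.49 and 5.53 in WT and 3.50 and 2.40 in KO, so that in KO it still stood at more than 2 times the median region. Another 313-bp region, on chromosome 12 at 70395963 to 70396275, had 8.55 and 9.79 RPKM in WT and 6.59 and 6.41 RPKM in KO, with a scaled ratio of 1.52. Next in level was the region of chromosome 6 at 16977625 to 16977937, with 6.14 and 11.1 RPKM in WT and 4.75 and 5.26 RPKM in KO; it lay just inside the threshold and its WT libraries were uneven.

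Among the other members of high level, the region of chromosome 4 at 87573392 to 87573704 was even within genotypes, with scaled values of 3.55 and 3.69 in WT and 2.05 and 1.73 in KO. On chromosome 4 as well, at 84592418 to 84592734, the KO libraries were far apart, at 2.03 and 0.790, beside 3.39 and 3.24 in WT. The 488-bp region of chromosome 16 at 36932008 to 36932495 had 3.59 and 2.82 in WT and 1.70 and 1.71 in KO. Regions of chromosome 6 at 94917113 to 94917363, chromosome 2 at 125085062 to 125085312 and chromosome 10 at 75104643 to 75105017 completed the 10 of highest mean, with ratios of 1.56, 1.64 and 1.58.

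KO-low regions were also narrow. Their median width was 315 bp (narrowest 251 bp, widest 1166 bp), against 644 bp over all regions of 3 RPKM or more. Exactly 251 bp, the commonest width in the files, was the width of 33 of the 107 (30.8%), against 7.21% of all regions of that level, and 17 were 313 bp wide. As level and width go together, the members between 3 and 4 RPKM were set beside all regions between 3 and 4 RPKM. Their median width was 379 bp against 462 bp, and 29.6% (21 of 71) were 251 bp wide against 14.2%. Of 2448 regions of 2000 bp or more, 0 were KO-low. The 5 widest members lay on chromosome 10 at 93135350 to 93136515 (ratio 1.66) and 30380402 to 30381327 (1.51), on chromosome 11 at 106054340 to 106055400 (1.55), on chromosome 3 at 35204752 to 35205541 (1.51) and on chromosome 9 at 100358375 to 100359078 (1.85). The first of these had 112 and 164 reads in WT and 128 and 52 in KO, or scaled values of 1.72, 1.76, 1.03 and 0.929. These wide members held more reads than most, and 3 of the 5 had ratios under 1.6.

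**Figure D2:**
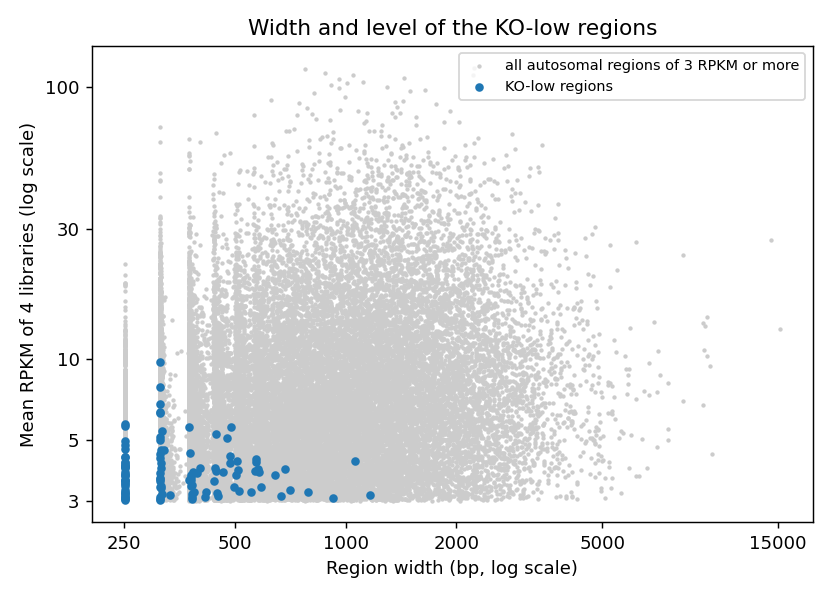
Width (bp, log scale) and mean RPKM of the 4 libraries (log scale) of the 107 KO-low regions (blue) over all 31485 autosomal regions of 3 RPKM or more (grey). Blue points keep to the narrow and weak corner: none is wider than 1166 bp or above 9.74 RPKM.

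Set beside the same rule applied with the libraries grouped otherwise, the KO-low regions were few. WT above KO held for 107 of 31485 regions (0.34%), and KO above WT for 578 (1.84%). When 1 WT and 1 KO library were put on each side, so that genotype was balanced, 167 regions (0.53%) passed with the first replicates of both genotypes above the second, and 178 (0.565%) with the second above the first. With Flicr WT replicate 1 and Flicr KO replicate 2 above the other 2 libraries 179 passed (0.569%), and with those other 2 above them 264 (0.838%). The KO-low count was the lowest of the 6. It was also the lowest when a difference of 25% was enough, with 475 against 757 to 915 in the balanced groupings and 2085 for KO above WT, and at a fold of 2, with 8 against 15 to 40 and 79. With no minimum level the order changed: 3004 regions were KO-low, within the 2066 to 3387 of the balanced groupings, and KO above WT, with 3366, was no longer the highest count. These counts are given as a description, with no test.

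**Figure D3:**
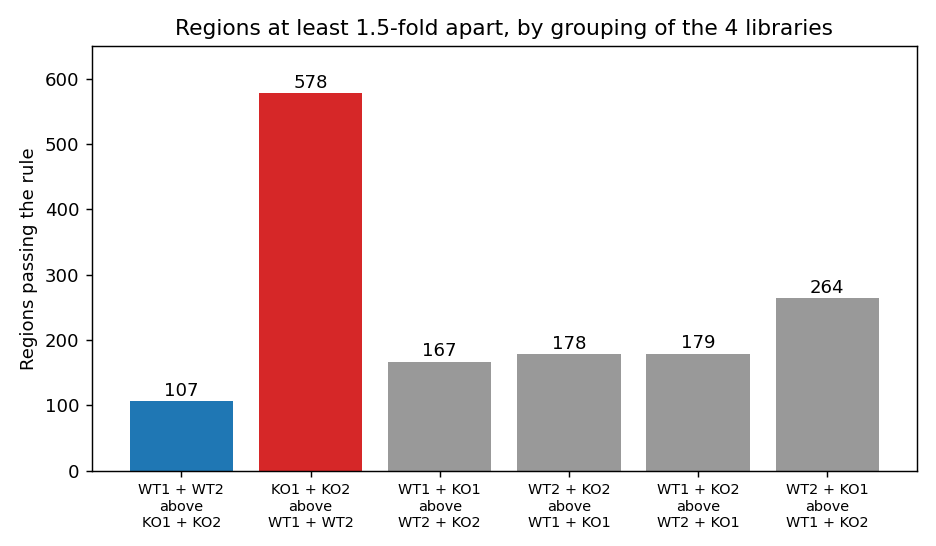
Number of regions passing the 1.5-fold rule (bars start at 0) for each way of setting 2 libraries above the other 2; WT1 stands for Flicr WT replicate 1 and so on. WT above KO (blue) has 107 regions, fewer than the 167 to 264 of the 4 balanced groupings (grey) and the 578 of KO above WT (red).

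The order depended on the scaling as well. When each library was scaled to its reads in regions, 228 regions were KO-low against 327 for KO above WT and 161 to 261 in the balanced groupings, so the KO-low count was the fourth lowest of the 6. Scaling to the 75th percentile gave 200 KO-low regions against 173 to 266 in the balanced groupings, and quantile normalization gave 187 against 169 to 268. Scaling to the median of the regions of 3 RPKM or more, chosen after seeing the data, gave 231 against 169 to 256. Under none of these 4 did the KO-low count leave the range of the balanced groupings, and under each KO above WT remained the highest count. With RPKM as deposited 27 passed, and all 27 were among the 107. The 107 regions themselves were all kept by the 4 scalings, where they made up 46.3% to 57.2% of the regions that passed. With scaling to the median of regions of 3 RPKM or more this was fixed in advance. That median, after the first scaling, was 2.38 and 2.39 in WT and 2.59 and 2.60 in KO, so every ratio of WT to KO rose. Scaling to reads in regions also raised every such ratio, so it too could lose none of the 107.

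**Figure D4:**
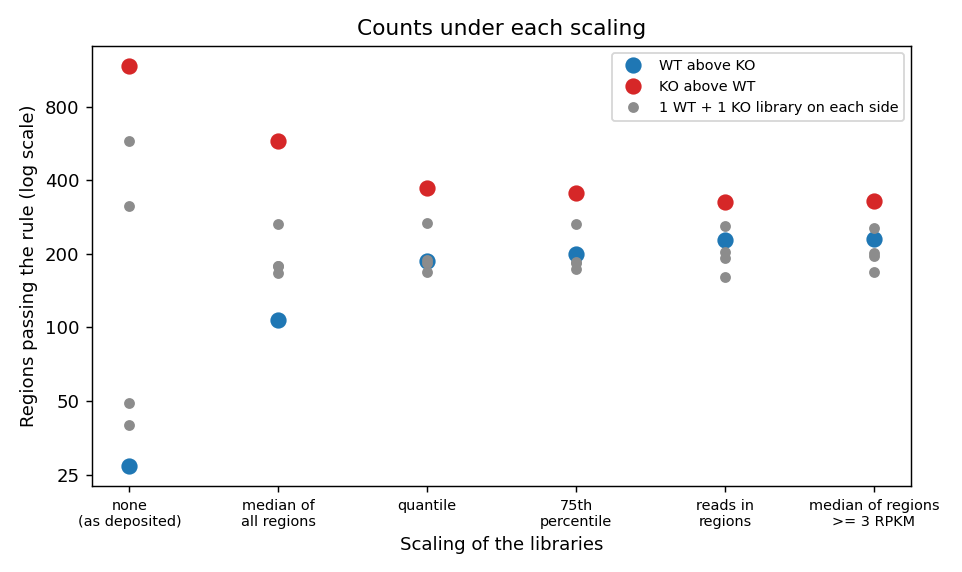
Number of regions passing the 1.5-fold rule (log scale) under 6 scalings of the libraries, for WT above KO (blue), KO above WT (red) and the 4 balanced groupings (grey). Blue is lowest with no scaling (27) and with the median of all regions (107) and lies within the grey range under the other 4 scalings (187 to 231).

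The balanced groupings gave regions of much the same kind. Their median widths were 314 to 324 bp, beside 315 bp for the KO-low regions and 377 bp for KO above WT. The share of 251-bp regions was 18.99% to 35.2% in the balanced groupings, 30.8% in the KO-low regions and 19.7% in KO above WT. Median levels were 3.73 to 3.87 RPKM in the balanced groupings, 3.74 RPKM in the KO-low regions and 4.30 RPKM in KO above WT. At 10 RPKM or more there were 1 to 4 regions in a balanced grouping and 29 for KO above WT, where the KO-low regions had 0. The share under 4 RPKM was 66.4% in the KO-low regions, above the 55.3% to 61.2% of the balanced groupings, while their median width, median level and share of 251-bp regions lay within the range of those groupings.

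Across the genome the KO-low regions were scattered. They lay on 18 of the 19 autosomes, from 12 on chromosome 2 (0.474% of its regions of 3 RPKM or more) and 10 on chromosome 4 (0.524%) to 4 on each of 6 chromosomes, and chromosome 9 had the highest share (9 of 1622, 0.555%). Chromosome 19 had 0 of 949, where the balanced groupings had 5 to 9. No 2 of them were next to each other in the order of regions of 3 RPKM or more, and no fixed window of 1 Mb held more than 2. The median gap between successive members was 11.5 Mb. Only 4 of the 107 (3.74%) had another within 100 kb, beside 1.12% to 4.49% in the balanced groupings and 15.9% for KO above WT. Such a share rises with the number of regions in a set, which was 167 to 264 in the balanced groupings and 578 for KO above WT, so these shares do not show that the sets differ in grouping.

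**Figure D5:**
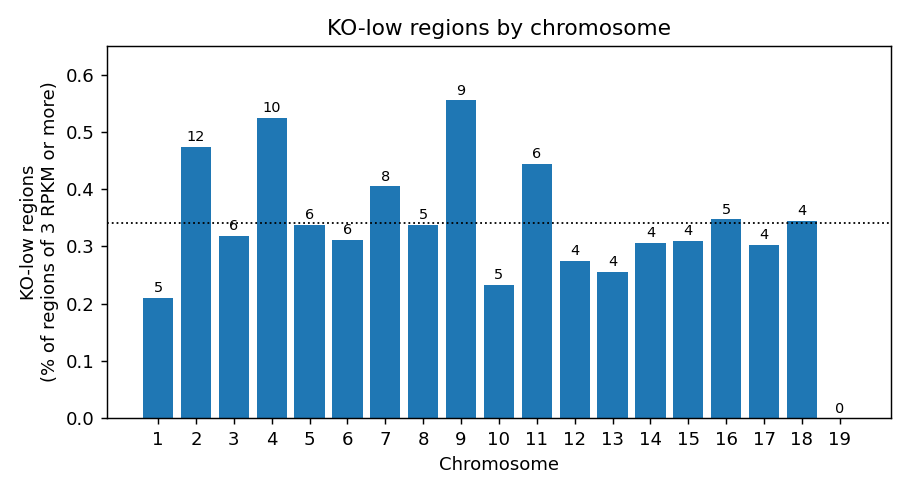
KO-low regions as a percentage of the regions of 3 RPKM or more on each autosome, with the number of KO-low regions above each bar; the dotted line is 0.34%, the share over all autosomes. Counts run from 0 on chromosome 19 to 12 on chromosome 2, and shares up to 0.555% on chromosome 9.

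The closest pair lay on chromosome 15, where 76804 bp separated 97536038 to 97536455 from 97613260 to 97613510. Scaled values were 1.97 and 1.80 in WT and 1.08 and 0.799 in KO in the first, and 2.29 and 2.30 in WT and 1.28 and 1.33 in KO in the second. Between them lay 9 other regions, 1 of which had 3 RPKM or more and was not KO-low. On chromosome 7, 132627949 to 132628199 and 132727547 to 132727797 were 99347 bp apart with 23 other regions between them, 7 of them of 3 RPKM or more. The pair on chromosome 1 comprised the most accessible member, named above, and the region at 155430399 to 155430774, at a distance of 163154 bp. Pairs on chromosome 5 (101092975 to 101093287 and 101358660 to 101359172) and chromosome 8 (42047161 to 42047473 and 42386707 to 42386957) were 265372 and 339233 bp apart. Even the closest members were therefore separated by regions that did not pass.

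Distances to other regions were close to those of regions in general. The nearest region of any kind was 2414 bp away in the median, against 2202 bp over all regions of 3 RPKM or more, and 2 of the 107 (1.87%) had no other region centred within 50 kb, against 1.64%. A region that passed in the opposite direction lay within 100 kb of 10 KO-low regions (9.35%), against 11.2% of the regions of 3 RPKM or more that passed in neither direction. The closest such region was 4875 bp away.

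Flanking regions were measured because their values had no part in choosing the members. There were 111 regions of 3 RPKM or more within 10 kb of a KO-low region and not themselves members, beside 64 of the 107. Their median scaled value was 2.30 and 2.38 for WT and 2.55 and 2.47 for KO. The KO libraries were both higher than either WT library, at 2.51 ± 0.0591 against 2.34 ± 0.0604 (SD, n = 2 each), the opposite direction from the members they flank. All other regions of 3 RPKM or more had a like difference, with means of 2.38 in WT and 2.60 in KO (log2 0.13, against 0.10 in the flanking regions). An exact permutation test, taken on both sides, returned p = 0.333, the smallest that 2 libraries against 2 allow. Of the 111, 38 (34.2%) had a lower scaled mean in KO, against 30.8% of all other regions of 3 RPKM or more. Within 5 kb the groups overlapped (log2 0.02, exact permutation p = 1), as they did for flanking regions of any level (log2 0.0065, exact permutation p = 1). With libraries scaled to their reads in regions the flanking difference changed sign (log2 -0.028).

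A pair of libraries that had no part in the fold choice gave a further reading, though the minimum level was taken over all 4 libraries. Of 1874 regions of 3 RPKM or more in which Flicr WT replicate 1 was at least 1.5 times Flicr KO replicate 1, 248 (13.2%) showed the same between the second replicates, and 357 (19.1%) were 1.5-fold in the opposite direction. Over all 31485 regions those shares were 6.69% and 13.1%. Choosing on the second replicates and reading the first gave 11.8% the same way and 21.7% the opposite way among 2105 regions, where all regions gave 5.95% and 15.9%. For the crossed pairs the shares the same way were 11.8% and 15.3%, where all regions gave 5.34% and 6.9%. The opposite way they were 16.6% and 21.7%, where all regions gave 12.5% and 16.1%. In all 4 readings both shares were higher among the chosen regions than among all, the share the same way by the larger factor, and the opposite direction still had the larger share. In the other direction, of 5004 regions in which Flicr KO replicate 1 was at least 1.5 times Flicr WT replicate 1, 20.8% showed the same in the second replicates, against 13.1% of all regions, and 9.13% the opposite, against 6.69%. None of these differences was tested, and the chosen regions were not matched with all regions for level. By their own rule the 107 KO-low regions are among those that showed the same in each reading of lower values in KO.

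The fit over all regions called no KO-low region. Limma on log2(scaled RPKM + 1), with Benjamini-Hochberg adjustment over 80254 regions, gave 0 regions lower in KO (0%), while 1606 regions were lower at an unadjusted p under 0.05 (2%). The smallest adjusted p of this limma fit, over regions of either direction, was 0.513. Limma voom on the reads called 12 regions lower in KO (0.015%), and 0 of them were KO-low. It scaled the libraries to their reads in regions and not to the median of all regions, so the fits differ in scaling too. On the log2(scaled RPKM + 1) scale, which understates the change of weak regions, the fitted differences of the 107 had a median of -0.78 and ran from -1.45 to -0.49, beside a median of 0.12 over the regions of 3 RPKM or more. The lowest adjusted p of a member in the limma fit was 0.537. Without Flicr WT replicate 2, the fitted difference of the region at 3000005 of chromosome 9 went from -1.45 to -1.94. Its scaled WT values were 3.57 and 1.60, so the library left out held the lower of them. Both WT libraries exceeded both KO libraries, with no fold required, in 2750 of the 31485 regions (8.73%), and the KO-low regions are those of these 2750 with the wider gap. The reverse held in 10086 regions (32.0%), and each balanced grouping separated in 14.3% to 15.4%.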

How the data were processed

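ATAC-seq libraries of 2 Flicr WT and 2 Flicr KO samples were grouped by the genotype in their titles. The authors deposited 1 RPKM value for each of the same 84476 regions per library, per the file headers. Tools listed in the submitters' processing notes, with no role given, are DiffBind, HOMER 4.6, Bowtie2, SAMtools and Picard 1.130, and the build is mm9; duplicate handling, read shift and peak merging are not given in the sources used here. Region length was taken here as the stated width less 1 bp. RPKM times that length gave whole multiples of 1 step in 100% of values (tolerance 0.001 reads), from which reads and totals were recovered. The smallest product in each library was taken as 1 read, so no region can lie below 1 read, and 1 may stand for 0. Even numbers made up 78.8% to 85.5% of the read numbers, as when both mates are counted, so intervals on reads are too narrow. Starts count from 1.

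Members were found by the stated rule. The members, tests and alternatives were chosen with earlier results of these data known. Regions named are the 10 with the largest ratio, the 10 of highest mean, the 5 widest, those nearest the threshold (up to 3 on each side) and the 5 closest pairs. The fit over all regions was limma 3.58.1 (R 4.3.3, trend and robust) on log2 of scaled RPKM, multiplied by the mean of the 4 medians, plus a pseudocount of 1, for regions at or above the 5th percentile of mean RPKM (1.01), with Benjamini-Hochberg adjustment at 0.05; the script was tested on simulated data. An exact permutation test over libraries used scipy 1.17.1. Python 3.11.15, numpy 2.4.6, pandas 2.3.3 and matplotlib 3.10.9 were used for the rest. Same-numbered replicates did not deviate together (correlation 0.00206 over 80254 regions).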

Additional observations from a re-analysis of the deposited data

How the results depend on the processing

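Against 107 KO-low regions there were 475 where a difference of 25% was enough, 8 at a fold of 2, 461 at a minimum of 2 RPKM, 14 at 5 RPKM, 3004 with no minimum, 27 with no scaling, 228 scaled to reads in regions, 200 scaled to the 75th percentile, 187 with quantile normalization and 231 scaled to the median of regions of 3 RPKM or more; leaving out 1 library gave 589 (Flicr WT replicate 2) to 889 (Flicr KO replicate 1), where fewer libraries have to differ and the minimum level is taken over the other 3; of the 107, 97 remained without Flicr WT replicate 1, 66 without Flicr WT replicate 2 and 107 without either KO library. Leaving out a library cannot narrow the gap between genotypes, so members were lost there only through the minimum level. All 107 had WT above KO in deposited RPKM, so leaving out a KO library raised their mean, and keeping all of them was fixed in advance. With all libraries and no minimum, the opposite direction had 3366. The 4 members with another within 100 kb became 49 (a 25% difference), 0 (fold 2), 58 (2 RPKM), 0 (5 RPKM), 0 (no scaling), 10 (reads in regions, added after seeing the data), 0 within 10 kb, 18 within 1 Mb and 94 to 168 with a library left out. The median width stayed between 251 and 381 bp in all settings run. Limma called 0 regions lower in KO in all settings run except voom (12) and without Flicr WT replicate 2 (9), and leaving out a library gave 0 to 9; a lone library is then assumed to vary like the other group. With the replicate number as a block limma also called 0 lower and changed no call of a member. The log2 difference of the flanking regions, 0.10, was -0.028 with libraries scaled to reads in regions, 0.02 within 5 kb, 0.0065 with no minimum, 0.29 with no scaling and 0.074 to 0.13 with a library left out. The cause of these shifts was not tested, except that fewer libraries or another threshold enter by construction. The 37 named regions were refitted under 14 settings, 5 of them added for these regions after seeing the data. Of the 518 refits, 517 kept their direction and stayed short of the threshold. The other was the KO-low region at 3000005 of chromosome 9 in the fit without Flicr WT replicate 2. It also kept its direction, and that fit has a single WT library. Named regions were picked by this same contrast or lay just outside its threshold, so a kept direction was largely fixed in advance. Depth limits the members most in Flicr KO replicate 2, with a median of 18 reads.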

Other observations

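The rule leaves out the sex chromosomes, and Flicr lies on chromosome X. On chromosome X, 851 regions had a mean of 3 RPKM or more, of which 3 would have passed as lower in KO and 19 as higher. The 3 lay at 156130910 to 156131556 (scaled values 1.66 and 1.92 in WT, 0.728 and 1.03 in KO), at 156265996 to 156266525 (1.89 and 2.01 in WT, 0.747 and 0.866 in KO) and at 160617750 to 160618000 (2.71 and 2.90 in WT, 1.20 and 1.67 in KO). Of the 8 regions of that level on unplaced sequence and the 3 on chromosome Y, 0 would have passed in either direction.

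The minimum level is set on the deposited RPKM, before scaling, and the share of genotype-separated regions that were lower in KO moved with it. It was 15.6% at 3 RPKM, 28.5% at 2 RPKM, 6.36% at 5 RPKM and 47.2% with no minimum.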
